A study of Mus musculus with 12 samples.

Results

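The first day of polyamine synthesis inhibition was followed on 5 arrays, 2 of cells kept for 12 h and 3 of cells kept for 24 h in 1 mM difluoromethylornithine (DFMO), which the labels title DFMO-treated 12h and DFMO-treated 24h. They were pooled as 1 early group and compared with the 3 arrays titled Untreated, control, so 8 of the 12 arrays of the series enter the comparison. The remaining arrays, 2 at 48 h and 2 at 96 h, were used to estimate the spread and to show later levels. All were made from NIH3T3, a single immortalised line of mouse fibroblasts, after the G1 fraction had been sorted, on Affymetrix MoGene 1.0 ST arrays, and the labels call them biological replicates. The drug was added 24 h after seeding. The untreated cells belong to 0 h per the series text, so hours in culture cannot be told apart from exposure to the drug.

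Polyamines are small positively charged molecules that bind RNA, DNA and phospholipids and are needed for cell growth. DFMO irreversibly blocks ornithine decarboxylase, the first enzyme of their synthesis, and acts on the protein rather than on its gene. Cells hold polyamine levels steady largely after transcription: antizymes bind ornithine decarboxylase and send it to the proteasome, antizyme inhibitors bind antizyme in turn, and a residue made from spermidine, hypusine, is needed for the activity of the translation factor eIF5A. Existing pools decline by conversion, export, catabolism and dilution through division.

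No gene passed the test between early DFMO and untreated cells: 0 of 19938 genes (0%) had a limma adjusted p under 0.05, and the smallest was 0.115. At an unadjusted p under 0.05 there were 1691 genes (8.48%), 642 higher (3.22%) and 1049 lower (5.26%). Over all genes the spread behind this was small. Across all genes, Pearson's r between arrays of 1 time lay between 0.994 and 0.998. The median width of the 95% interval on either side of a gene's difference was 0.15 log2 units, a fold of 1.11, and for 96% of genes the whole interval lay within 1.5-fold of no difference. Low transcripts weigh in these figures. The median SE of the difference was 0.05 in the 9418 genes with a mean under 4 log2 units. It was 0.11 in the 8418 genes at 5 or more, whose intervals were thus wider. The median difference over all genes was -0.01, with 8552 genes fitted higher and 11386 lower. Counts of list members fitted higher or lower, given below, stand beside this split. With each time compared on its own, limma called 0 genes at 12 h (smallest adjusted p 0.836, 741 genes at an unadjusted p under 0.05) and 0 at 24 h (0.229 and 1579 genes).

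A second reading needs no estimate of spread and asks in which genes the 5 early arrays all lay on 1 side of the 3 untreated arrays. They lay above in 338 genes (1.7%) and below in 832 (4.17%). The excess below came from low transcripts. Among the 9418 genes with a mean under 4 log2 units, 0.764% lay above and 5.78% below. Among the 5178 genes at 7 or more, 136 (2.63%) lay above and 134 (2.59%) below, as the plot of these shares by level shows. The medians over all transcript clusters, 4.185, 4.202 and 4.192 in untreated arrays, were all above those of the early arrays, 4.167 and 4.148 at 12 h and 4.158, 4.145 and 4.157 at 24 h. With each array centred on its own median the split turned over, to 862 genes above and 245 below, and from 38% to 75.8% higher among genes with an unadjusted p under 0.05, still with 0 called.

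**Figure D1:**
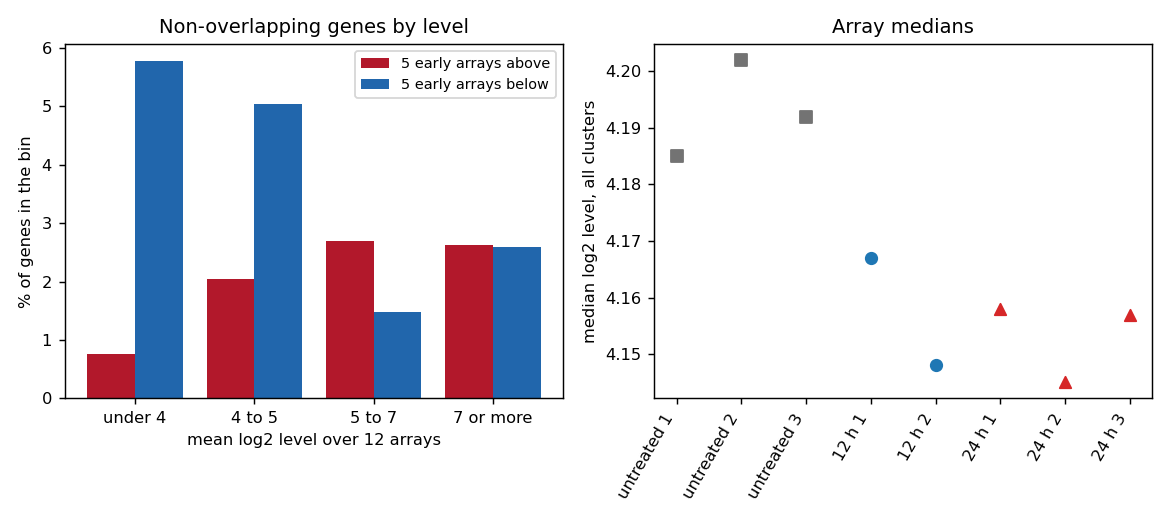
Left, percent of genes in 4 bins of mean log2 level whose 5 early arrays all lay above (red) or below (blue) the 3 untreated arrays. Right, median log2 level over all transcript clusters of each of the 8 arrays, untreated in grey, 12 h in blue and 24 h in red, on an axis that covers a narrow range. Genes below the untreated arrays are the larger share under a level of 5, and the 5 early medians sit at 4.167 or lower, while the untreated ones sit at 4.185 or higher.

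Untreated replicate 3, 12 h replicate 2 and 24 h replicate 3 deviated together from their groups. On the first principal component of the 8 arrays, which held 34.4% of their variance, these arrays lay at 13.7, 15.4 and 13.1, and the remaining arrays lay between -3.86 and -13.2. On the second (17.7%) the untreated arrays lay at 6.61, 10.1 and 8.57, with the early ones from -12.7 to 3.91. Without those 3 arrays limma again called 0 genes, with a smallest adjusted p of 0.208, 927 genes higher and 1020 lower at an unadjusted p under 0.05. The same 3 arrays also had higher values of short genes relative to long ones. The median of genes of at most 11.9 kb minus that of genes of at least 58.8 kb (the outer quartiles of span, among genes at 7 log2 units or more, after each gene's mean was removed) was 0.032, 0.122 and 0.07 in them and -0.099 to -0.001 in the rest. Genes whose early arrays lay above the untreated ones had a median span of 19.9 kb, those below 36.5 kb, and all genes at that level 26.5 kb. With all arrays kept and a block for these 3, limma called 0 genes, with a smallest adjusted p of 0.122. At an unadjusted p under 0.05 that fit had 852 genes higher and 1279 lower. Why the 3 arrays deviated, and whether span has a part in any difference described below, was not tested. Differences without the 3 arrays are given for Azin2, the 20 genes of smallest p and the unfolded protein response list.

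The fibroblast label held. The median untreated level of 15 fibroblast markers was 10.09 log2 units, with Vim (vimentin, an intermediate filament) at 12.3 in both groups, Col1a2 (a collagen I chain) at 11.8 and 11.66, and Fn1 (fibronectin) at 11.68 and 11.63. Over the list 12 of 15 were fitted lower, with a median of -0.10. Fap and Lum, at 3.44 and 3.88 in untreated cells, lay at the floor. That floor was read from 19 leukocyte markers, whose median was 3.62 and highest level 4.39. Epithelial and endothelial markers had a median of 3.52, with keratin gene Krt14 the exception at 8.83 in untreated and 8.49 in early arrays. Adipocyte markers had a median of 3.70, with Plin2, Lpl and Dgat1 above it at 8.87, 7.72 and 7.54. None of these lists had a member called. In bulk RNA, fewer cells of a type and less RNA per cell cannot be told apart.

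Among the polyamine genes the 2 antizyme inhibitors had the clearest difference. Azin1, whose protein frees ornithine decarboxylase from antizyme, had log2 levels of 10.00, 10.12 and 10.16 in untreated arrays, 10.36 and 10.60 at 12 h, and 10.50, 10.71 and 10.53 at 24 h. All 5 early arrays lay above all 3 untreated ones. The difference was 0.45 ± 0.08 log2 units (SE, limma adjusted p = 0.252, n = 5 against 3), and 0.46 without the 3 arrays that deviated together. Levels at 48 h were 10.31 and 10.56 and at 96 h 10.17 and 10.20, and the 48 h arrays overlapped with the early ones. Azin2, a second antizyme inhibitor with a lower signal, had levels of 5.13, 5.02 and 4.81 in untreated arrays against 5.41 and 5.22 at 12 h and 5.36, 5.44 and 5.47 at 24 h. Its groups did not overlap either, with a difference of 0.39 ± 0.09 (adjusted p = 0.348). It was 0.33 without the 3 arrays. Of the 25 polyamine genes measured, these 2 (8%) lay above the untreated arrays. The share was 1.7% of all genes and 2.65% of genes at 5 log2 units or more. In 0 of the 25 did the early arrays all lie below.

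For ornithine decarboxylase itself the groups could not be separated. Odc1 had values of 9.61, 9.73 and 9.79 in untreated arrays, 9.47 and 10.08 at 12 h, and 9.81, 9.56 and 9.85 at 24 h. The early range enclosed the untreated one. The difference was 0.05 ± 0.12, with a 95% interval of -0.22 to 0.32 (limma adjusted p = 0.933). Since the drug acts on the protein, this does not report on inhibition.

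Antizyme 2 was the polyamine gene in which the pooled times differed most. Oaz2 had levels of 5.89, 5.68 and 6.02 in untreated arrays, 5.65 and 6.17 at 12 h, and 5.09, 5.11 and 5.19 at 24 h. The 12 h arrays spanned the untreated range, and the 24 h arrays lay close together below it. Pooled, the difference was -0.42 ± 0.22 (limma adjusted p = 0.645). At 48 h the levels were 4.70 and 4.63. Oaz3, the antizyme of the testis, lay at the floor (3.71 and 3.58), and Oaz1, the most studied antizyme, was not among the genes measured by a cluster of its own.

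The genes of synthesis and breakdown differed less clearly. Srm, which makes spermidine from putrescine, had a mean of 9.91 ± 0.11 (SD, n = 3) in untreated and 9.88 ± 0.13 (SD, n = 5) in early arrays. Sat1, which acetylates spermidine and spermine for export or breakdown, had levels of 9.73, 9.58 and 9.38 against 9.29 and 9.23 at 12 h and 9.39, 9.25 and 9.00 at 24 h. Here 1 early array, 24 h replicate 1, reached the lowest untreated array, and the difference was -0.33 ± 0.10 (limma adjusted p = 0.479). Smox, the oxidase that turns spermine back into spermidine, had levels of 6.33, 6.25 and 5.93 in untreated arrays, 6.14 and 5.95 at 12 h, and 5.00, 6.01 and 5.63 at 24 h. Its 24 h arrays were spread over more than the whole difference, which was -0.43 ± 0.24 (adjusted p = 0.664). Amd1, Amd2, Sms and Paox were not measured.

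In the methionine salvage pathway, which recycles the methylthioadenosine left over from spermidine and spermine synthesis, Apip had the largest difference of all polyamine genes, 0.54 ± 0.16 (limma adjusted p = 0.472). Apip values were 5.27, 5.37 and 5.84 in untreated arrays, 5.85 and 6.27 at 12 h, and 5.98, 5.77 and 6.32 at 24 h, so untreated replicate 3 lay within the early range. The other salvage genes Mtap, Mri1, Enoph1 and Adi1 had differences of -0.03, 0.12, 0.01 and 0.11. Eif5a, the hypusine-bearing translation factor, stood at 11.77 ± 0.03 (SD, n = 3) and 11.76 ± 0.04 (SD, n = 5), with a 95% interval of -0.11 to 0.10. Its modifying enzymes Dhps and Dohh differed by 0.03 and -0.16. Atp13a2, a lysosomal polyamine exporter, had 4.42, 4.36 and 4.28 in untreated arrays, 4.62 and 4.41 at 12 h and 4.58, 4.66 and 4.63 at 24 h, a difference of 0.23 ± 0.08 (adjusted p = 0.506). Its untreated levels lay near the floor, around the highest leukocyte marker (4.39). Over the whole list 13 genes were fitted higher and 12 lower, with a median of 0.01. At an unadjusted p under 0.05 there were 4 higher (Azin1, Azin2, Apip and Atp13a2) and 1 lower (Sat1).

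**Figure D2:**
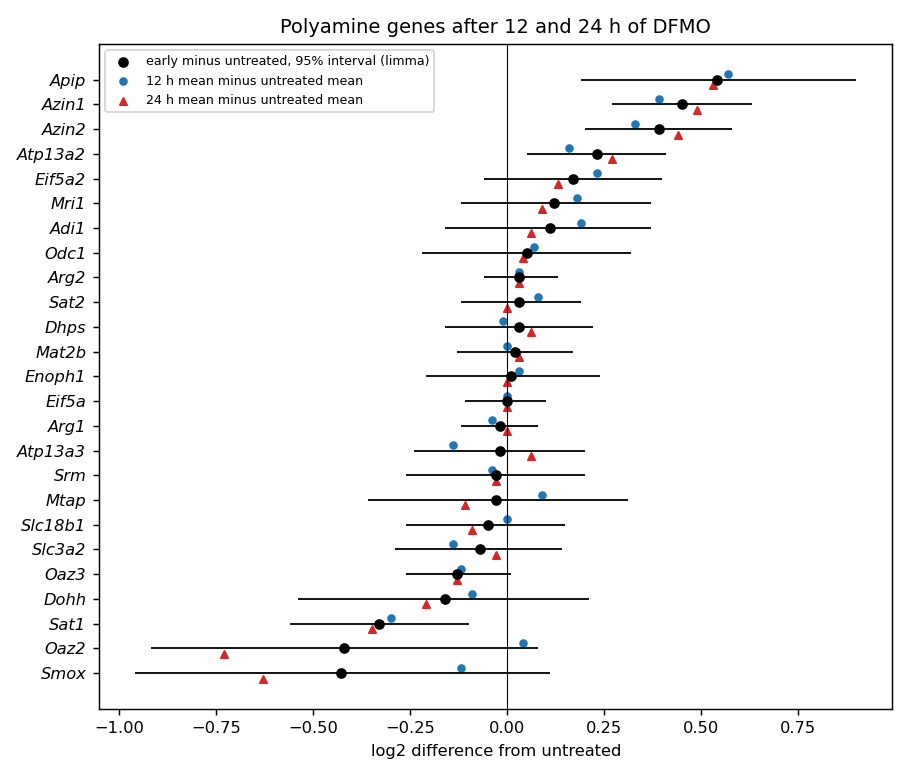
Log2 difference from untreated for the 25 polyamine genes measured: black points and lines are the early group with its 95% limma interval, blue points the 12 h mean and red triangles the 24 h mean. Apip, Azin1 and Azin2 lie to the right with both times together, and Oaz2 and Smox lie to the left at 24 h but near 0 at 12 h.

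The 10 genes with the smallest p in each direction, among those whose groups did not overlap, are described next, and none passed the adjusted threshold. Ccl25, a chemokine best known from thymus and gut, had the smallest p. Its levels were 5.47, 5.31 and 5.41 in untreated arrays, 5.87 and 5.84 at 12 h, and 5.84, 5.81 and 5.72 at 24 h, a difference of 0.42 ± 0.05 (limma adjusted p = 0.115). The early arrays spanned less than the gap to the untreated ones. Gpx1, the selenoprotein that reduces hydrogen peroxide with glutathione, had levels of 8.52, 8.44 and 8.41 against 8.69 and 8.99 at 12 h and 8.87, 8.89 and 9.04 at 24 h. Its difference of 0.44 ± 0.07 (adjusted p = 0.182) was 0.33 without the 3 arrays that deviated together, and its levels at 48 h, 9.26 and 9.29, were higher still. H2ax, the histone variant that is phosphorylated at DNA breaks, had levels of 6.79, 6.77 and 6.80 in untreated arrays, 7.12 and 7.40 at 12 h, and 7.20, 7.24 and 7.15 at 24 h. The difference of 0.44 ± 0.07 (adjusted p = 0.182) was followed by levels of 7.04 and 6.92 at 48 h, still above the untreated ones, and of 5.97 and 5.73 at 96 h. Mrpl41, a protein of the mitochondrial ribosome, had levels of 8.36, 8.39 and 8.26 against 8.69, 8.52, 8.77, 8.77 and 8.68, a difference of 0.35. The remaining genes of this group were Galnt13 (0.44), which starts O-glycans, Nemp2 (0.37), a nuclear envelope protein, Kctd2 (0.35), Mocs2 (0.34), which makes molybdenum cofactor, and Zdhhc1 (0.24), a palmitoyltransferase. Azin1 was the tenth. Without the 3 arrays that deviated together the differences were 0.45 for Ccl25, 0.41 for H2ax, 0.37 for Mrpl41, 0.45 for Galnt13, 0.35 for Nemp2, 0.36 for Kctd2, 0.35 for Mocs2 and 0.28 for Zdhhc1.

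In the opposite direction Slc45a4, a solute carrier that work outside these data has described as a polyamine transporter, stood furthest out. It is not in the polyamine list counted above, and was the 1 gene with a fitted difference of at least 2-fold. Its levels were 5.90, 6.16 and 5.66 in untreated arrays, 5.04 and 4.87 at 12 h, and 4.92, 5.00 and 4.42 at 24 h. The gap between the groups was wider than the spread of the untreated arrays. The difference was -1.06 ± 0.17 (limma adjusted p = 0.182), -1.04 without the 3 arrays, and later levels were 4.72 and 4.71 at 48 h. Tmem230, a membrane protein of secretory and synaptic vesicles, had 6.86, 7.08 and 6.88 in untreated arrays, 6.62 and 6.59 at 12 h, and 6.50, 6.61 and 6.60 at 24 h, a difference of -0.36 ± 0.05 (adjusted p = 0.182). Tab2, the adaptor that links ubiquitin chains to the kinase TAK1, had 9.38, 9.49 and 9.41 against 9.17 and 9.21 at 12 h and 9.07, 9.05 and 8.94 at 24 h, a difference of -0.33 ± 0.06 (adjusted p = 0.267). Ints3 (-0.41), a subunit of the Integrator complex, Emsy (-0.39), a BRCA2-binding protein, Arhgef5 (-0.37), a guanine nucleotide exchange factor, Ankle2 (-0.27), a nuclear envelope protein, Nexmif (-0.24) and Iqck (-0.20) completed the group, of which Nexmif and Iqck had levels near the floor. In Tab2 and Arhgef5 all 24 h arrays also lay below both 12 h arrays (differences between times -0.17 and -0.09), as in 6.9% of all genes. In Kctd2, of the genes higher, the 24 h arrays lay above both at 12 h (0.09), as in 5.45% of all genes. A small p of the pooled group favours genes whose times lie close together. Without the 3 arrays that deviated together the differences of Tab2, Tmem230, Ints3, Emsy, Arhgef5, Ankle2, Nexmif and Iqck were -0.33, -0.39, -0.41, -0.41, -0.37, -0.26, -0.25 and -0.22.

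**Figure D3:**
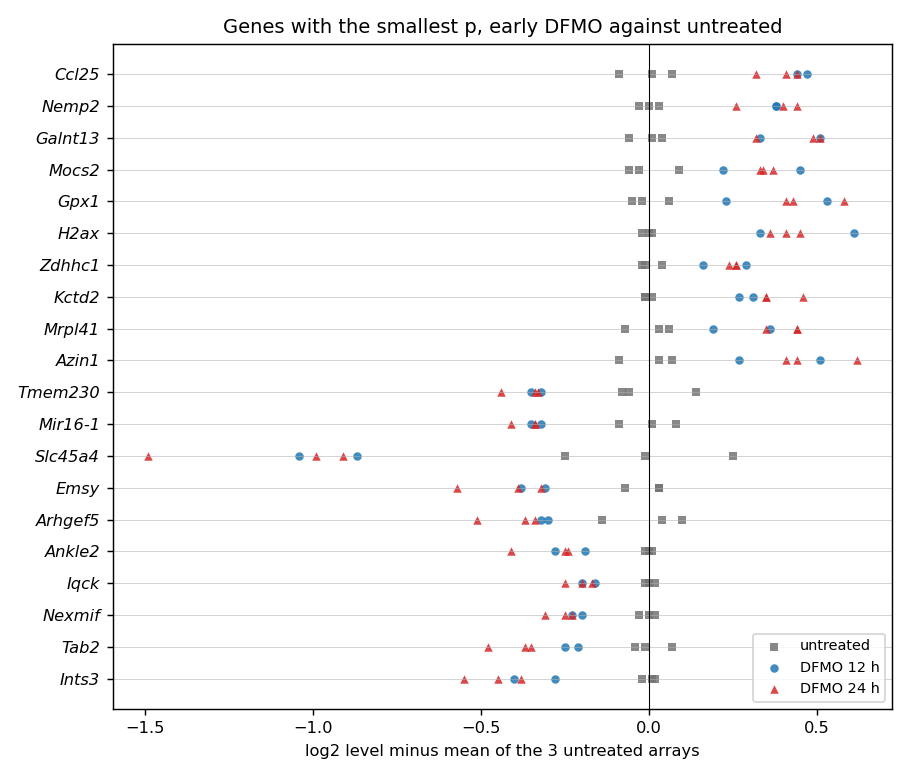
Log2 level of the 10 genes with the smallest p in each direction, among those whose groups did not overlap, in each of the 8 arrays minus the mean of the 3 untreated arrays (grey squares untreated, blue circles 12 h, red triangles 24 h). Slc45a4 is set apart at the left, and in the other genes the early points lie closer to 0 but outside the untreated ones.

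The last of these genes is a microRNA locus, Mir16-1, whose cluster read 4.63, 4.53 and 4.70 in untreated arrays, 4.27 and 4.30 at 12 h, and 4.28, 4.28 and 4.21 at 24 h (difference -0.36 ± 0.06, limma adjusted p = 0.182). Its groups did not overlap, close to the floor, and the difference was -0.31 without the 3 arrays that deviated together. The labels give total RNA as the material, and a whole-transcript cluster does not separate the mature microRNA from its precursor. The 2 mature sequences of this hairpin are printed to show what the locus makes, from RefSeq on GRCm38.p6 with the seed, bases 2 to 8, in capitals. The first, known for restraining cyclins of G1, is also made from a second locus.
mmu-miR-16-5p, chr14:61631936-61631957, minus strand: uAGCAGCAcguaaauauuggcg
mmu-miR-16-1-3p, chr14:61631894-61631915, minus strand: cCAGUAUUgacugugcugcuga

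By size alone, 12 genes had a fitted difference of at least 1.5-fold, 6 higher and 6 lower, and they were looked up after their values were seen. Eif1b, a start-codon selection factor, had the largest positive value, 0.65 ± 0.16 (limma adjusted p = 0.429), with 7.23, 7.13 and 7.58 in untreated arrays, 7.61 and 8.19 at 12 h, and 8.14, 7.75 and 8.12 at 24 h. The lowest early array lay just above the highest untreated one. Cirbp, a cold-inducible RNA-binding protein, had 6.54, 6.63 and 6.53 against 7.10 and 6.93 at 12 h and 6.91, 7.86 and 7.24 at 24 h, a difference of 0.64 ± 0.20 (adjusted p = 0.476). Tmem218 (0.62) also did not overlap, whereas Gpnmb (0.62), Gxylt2 (0.61) and Snord52 (0.61) did. On the lower side all but Slc45a4 overlapped with the untreated arrays, and their early arrays were spread widely. Eln, tropoelastin, had 9.75, 9.52 and 9.19 in untreated arrays but 10.30 and 8.33 at 12 h and 6.90, 9.31 and 9.14 at 24 h, a difference of -0.69 ± 0.61. Slc7a11, the cystine importer, had 6.26, 6.41 and 7.19 against 6.72 and 4.57 at 12 h and 5.68, 5.80 and 6.57 at 24 h (-0.75 ± 0.48). Ranbp3l (-0.84), Cdsn (-0.63) and Slc6a9 (-0.62) had early arrays 1 log2 unit or more apart.

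The enzymes of cholesterol synthesis, which are switched on together by the transcription factor SREBP-2 when sterols run low, showed what pooling the times does. Promoters of 3 of them and of a chaperone gene described below are printed because shared motifs can be read in them. The 250 bases before each gene's start were taken from RefSeq, GRCm38.p6. Capitals mark CCAAT, the NF-Y box, or its reverse complement, and in Hmgcs1 also a match to TCACNCCAC, the sterol regulatory element.
Nsdhl, chrX:72918271-72918520, plus strand: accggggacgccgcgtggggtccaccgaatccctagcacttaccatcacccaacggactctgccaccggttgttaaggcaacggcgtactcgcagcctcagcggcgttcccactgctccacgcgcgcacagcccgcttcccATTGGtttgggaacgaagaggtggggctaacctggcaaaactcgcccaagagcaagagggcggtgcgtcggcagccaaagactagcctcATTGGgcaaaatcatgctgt
Idi1, chr13:8885356-8885605, plus strand: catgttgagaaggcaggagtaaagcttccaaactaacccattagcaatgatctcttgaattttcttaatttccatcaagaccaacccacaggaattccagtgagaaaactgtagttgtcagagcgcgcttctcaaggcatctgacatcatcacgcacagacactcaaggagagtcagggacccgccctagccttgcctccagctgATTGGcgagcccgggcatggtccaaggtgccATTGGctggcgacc
Hmgcs1, chr13:119690101-119690350, plus strand: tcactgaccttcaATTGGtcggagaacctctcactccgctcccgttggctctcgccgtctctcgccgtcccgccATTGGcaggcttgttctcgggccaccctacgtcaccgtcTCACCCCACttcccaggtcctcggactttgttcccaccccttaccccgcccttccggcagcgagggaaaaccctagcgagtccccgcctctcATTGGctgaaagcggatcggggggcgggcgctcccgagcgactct
Sdf2l1, chr16:17132384-17132633, minus strand: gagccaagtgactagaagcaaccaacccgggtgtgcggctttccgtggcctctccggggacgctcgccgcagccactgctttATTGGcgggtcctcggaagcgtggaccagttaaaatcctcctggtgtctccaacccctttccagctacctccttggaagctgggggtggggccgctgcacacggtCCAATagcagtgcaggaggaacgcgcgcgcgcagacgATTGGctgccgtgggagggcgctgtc
On either strand, CCAAT was present in 16 of the 16 cholesterol genes that matched the promoter table (100%, of 20 measured) and in 37.5% of all 27025 genes in it. The sterol element TCACNCCAC was in 1 of 16 (6.25%) against 1.22%, and its core CACNCCAC, which it contains, in 2 (12.5%) against 6.05%. The E-box CACGTG was in 4 (25%) against 6.86%. These are matches of letters and no sites of binding.

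In the pooled comparison 0 of 20 cholesterol genes lay beyond the untreated arrays on either side. Of the 20, 19 were fitted lower, against 11386 of 19938 over all genes. The list median was -0.20 log2 units, against -0.01 for all genes. Without 24 h replicate 1 the list median was -0.10. Nsdhl, a sterol dehydrogenase of the late pathway, had the largest difference and was the 1 member with an unadjusted p under 0.05. Its levels were 9.44, 9.30 and 8.94 in untreated arrays, 9.20 and 8.90 at 12 h, and 8.45, 8.87 and 8.48 at 24 h. All 3 arrays at 24 h lay below the untreated range, 12 h replicate 1 lay within it, and 12 h replicate 2 just under it. The pooled difference was -0.45 ± 0.17 (limma adjusted p = 0.543). The list median was 0.05 at 12 h and -0.33 at 24 h, 2 comparisons that share the untreated arrays, and stood at -1.49 at 48 h and -2.09 at 96 h. By the same limma fit 19 of the 20 fell at 48 h, when 3.17% of all genes were called lower and 2.65% higher. Averaged over the list, the arrays lay 0.08 and 0.00 from the untreated mean at 12 h and -0.51, -0.13 and -0.33 at 24 h, against 0.10, -0.05 and -0.04 for the untreated arrays themselves. All 3 arrays at 24 h were thus below every untreated array and both at 12 h.

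The direct comparison of 24 h with 12 h uses no untreated array. By limma 0 genes passed, all adjusted p-values were 1, and 401 genes (2.01%) had an unadjusted p under 0.05. The 3 arrays at 24 h lay above both at 12 h in 1086 genes (5.45%) and below in 1375 (6.9%). Of the 20 cholesterol genes, 11 lay below and 0 above, and 10 had an unadjusted p under 0.05. Over the list 19 were fitted lower, against 10511 of 19938 over all genes. The median was -0.36 against 0 for all genes. Mvd, mevalonate diphosphate decarboxylase, had 8.14 and 7.83 at 12 h and 7.10, 7.29 and 7.48 at 24 h, a difference of -0.70 ± 0.15. Mvk, mevalonate kinase, had 8.27 and 8.19 against 7.40, 7.74 and 7.73 (-0.61 ± 0.17). Idi1, which isomerises isopentenyl diphosphate, had 10.59 and 10.61 at 12 h, on the untreated mean of 10.58, and 10.13, 10.28 and 10.05 at 24 h (-0.45 ± 0.12). The times did not overlap in these genes. Hmgcs1, which makes the precursor of mevalonate, had 10.43 and 10.35 against 9.65, 10.17 and 10.15 (-0.40 ± 0.16). Insig1, a sterol sensor partner that is itself a target of SREBP-2, had 10.67 and 10.80 against 10.12, 10.47 and 10.40 (-0.40 ± 0.15). Ebp (0.09) was the exception in sign, and Srebf2, the gene of the factor, stood at -0.03.

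**Figure D4:**
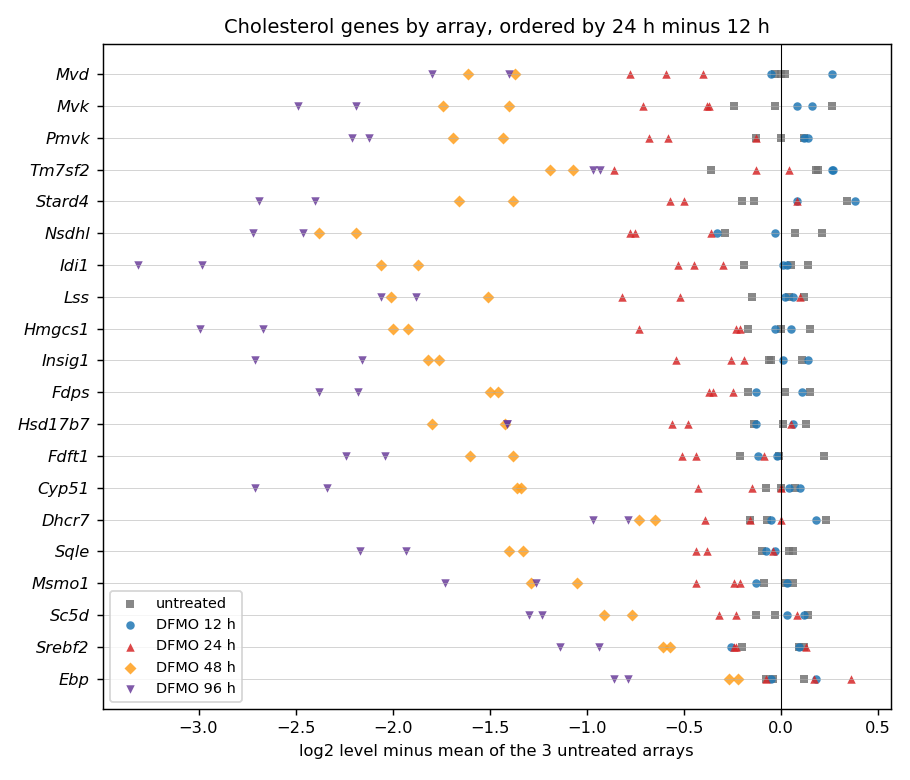
Log2 level of the 20 cholesterol genes in each of the 12 arrays minus the mean of the 3 untreated arrays, ordered by 24 h minus 12 h (grey squares untreated, blue circles 12 h, red triangles 24 h, orange diamonds 48 h, purple triangles 96 h). The 12 h points lie among the untreated ones, the 24 h points lie partly to their left, and the 48 h and 96 h points lie further left.

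In the same comparison the list of contractile, YAP and TGF-beta target genes had 8 of 31 members above and 1 below, with a median of 0.13, while 19 of 31 were fitted higher in the pooled comparison with a median of 0.05. The genes lower at 24 h with the smallest p were Gpr153, Oaz2 and Pnkd. Oaz2 had the largest difference of them, -0.78 ± 0.15, with -0.26 for both others. The genes higher at 24 h with the smallest p were AI413582 (0.50), C2cd2l (0.26) and Arsg (0.24), a lysosomal sulfatase. AI413582 had 4.92 and 5.00 at 12 h, within 0.1 of the untreated mean of 4.96, and 5.55, 5.31 and 5.52 at 24 h. In the 3 genes lower at 24 h, Oaz2, Gpr153 and Pnkd, the 12 h means differed from the untreated ones by 0.04, 0.17 and 0.06.

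Fatty acid synthesis genes had a pooled median of -0.07, with 14 of 20 fitted lower. Acly, which makes cytosolic acetyl-CoA, differed by -0.31 ± 0.12, and Me1, which makes NADPH, by -0.24 ± 0.08 (limma adjusted p = 0.531 and 0.5). Acly had 10.43, 10.34 and 10.19 in untreated arrays, 10.19 and 10.23 at 12 h, and 9.72, 10.09 and 9.83 at 24 h, so here too the 12 h arrays lay at the edge of the untreated range and the 24 h arrays below it. Srebf1, the gene of the related factor SREBP-1, had 6.67, 6.61 and 6.67 in untreated arrays and 6.24 to 6.61 in early ones, touching at the second decimal.

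The unfolded protein response list, chaperones and degradation factors of the endoplasmic reticulum with their sensors, had no member called. Of 29 members 24 were fitted lower, against 11386 of 19938 over all genes. The list median was -0.14 (-0.12 at 12 h and -0.16 at 24 h). At an unadjusted p under 0.05 there were 9 lower and 0 higher, and in 5 (17.2%, against 4.17% of all genes) the early arrays all lay below the untreated ones. Hyou1, a large chaperone of the Hsp70 family, had 9.01, 9.20 and 9.00 in untreated arrays, 8.84 and 8.52 at 12 h, and 8.44, 8.84 and 8.63 at 24 h. Its difference was -0.42 ± 0.11 (limma adjusted p = 0.472). Sdf2l1, a cofactor of the chaperone BiP whose promoter is printed above, had 8.40, 8.51 and 8.53 against 8.30 and 8.27 at 12 h and 7.69, 8.15 and 7.98 at 24 h, with a difference of -0.40 ± 0.12 (adjusted p = 0.479). Here the 24 h arrays lay below the 12 h ones. Syvn1, the ubiquitin ligase of ER-associated degradation, had 7.11, 7.13 and 7.10 in untreated arrays and 6.96, 6.49, 6.93, 6.69 and 6.73 in early ones (-0.35 ± 0.11). Manf (-0.20) and Dnajc3 (-0.19) were the other two. CCAAT was in the promoters of 21 of 24 members in the table (87.5%).

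The list mean placed untreated replicate 3 apart, at 0.11 above the untreated mean, with the other untreated arrays at -0.06 and -0.05 and the early arrays at -0.07, -0.18, -0.26, -0.12 and -0.11. Without the 3 arrays that deviated together the list median was -0.09, with 2 members lower and 1 higher at an unadjusted p under 0.05. In 5 of 29 (17.2%) the remaining early arrays all lay below the remaining untreated ones, against 18.7% of all genes. With those arrays left out the share was thus near that of all genes. With all arrays kept and a block for these 3 in the fit, the list median was -0.15.

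Genes of the ATF4 and amino acid response, which is induced when amino acids are short or translation initiation is blocked, had no member called. Of 40 members 11 were fitted higher and 29 lower, with a median of -0.08 against -0.01 for all genes. Atf4 itself had 8.93, 9.09 and 8.80 in untreated arrays, 9.13 and 9.03 at 12 h, and 9.29, 9.27 and 9.14 at 24 h, a difference of 0.24 ± 0.07 (limma adjusted p = 0.479). Its levels at 48 h, 9.94 and 9.98, were higher. Trib3, a target of ATF4 and CHOP, had 7.46, 7.44 and 8.13 against 7.59, 6.58, 6.85, 6.81 and 7.65 (-0.58 ± 0.29, adjusted p = 0.617), so the arrays spread over more than the difference. As a list mean the arrays lay from -0.34 to 0.08 at early times and from -0.12 to 0.21 in untreated cells. The composite element TGATGNAAT was in 2 of 32 promoters (6.25%) against 0.91% of all.

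Among chaperones of the heat shock list, 17 of 22 were fitted lower (median -0.06), with 5 lower and 1 higher at an unadjusted p under 0.05. Hspa4l, an Hsp110 family chaperone, had 9.47, 9.48 and 9.54 in untreated arrays and 9.01, 9.34, 9.21, 9.15 and 9.02 in early ones, which did not overlap (-0.35 ± 0.10, limma adjusted p = 0.468). It was the 1 of 22 (4.55%) below the untreated arrays, near the 4.17% of all genes. Hspe1, the mitochondrial co-chaperonin, had the opposite sign at 0.23 ± 0.08. Cytosolic aminoacyl-tRNA synthetases and their scaffold were fitted lower in 18 of 20 with a median of only -0.05, led by Vars (-0.20 ± 0.07), and Aimp1, the scaffold protein, stood at 0.30 ± 0.09. Ribosome biogenesis factors had a median of -0.08, with Polr1a, the large subunit of RNA polymerase I, at -0.21 ± 0.07. Glycolysis and hypoxia genes had a median of -0.09. Ldha, lactate dehydrogenase, had 11.74, 11.72 and 11.71 in untreated arrays and 11.66, 11.57, 11.30, 11.51 and 11.50 in early ones (-0.22 ± 0.09, adjusted p = 0.549).

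No common shift of proliferation genes was measured in the first day. The DNA replication list had a median of 0.01 over 49 genes, 28 fitted higher and 21 lower, with 3 in each direction at an unadjusted p under 0.05. The mitosis list had a median of 0.02 over 53 genes, 30 fitted higher and 23 lower. Their medians were -2.46 and -2.83 at 96 h. Cenpm, a centromere protein, was the 1 mitotic gene without overlap, at 7.82, 7.81 and 7.78 in untreated arrays and 7.86, 8.17, 8.02, 8.12 and 8.06 in early ones (0.24 ± 0.10, limma adjusted p = 0.548). That is 1 of 53 (1.89%), near the 1.7% of all genes that lay above the untreated arrays. Ccne1, cyclin E1, had 7.91, 8.15 and 7.88 against 7.78, 7.76, 7.99, 7.53 and 7.55 (-0.26 ± 0.11, adjusted p = 0.574). In both lists 12 h replicate 2 and untreated replicate 3 were among the highest arrays, at 0.19 and 0.12 for replication and 0.15 and 0.11 for mitosis. G1 cyclins and their inhibitors had a median of 0.01, with Ccnd2, cyclin D2, at -0.20 ± 0.08. Targets of p53 had a median of -0.02, with 1 member in each direction at an unadjusted p under 0.05. Replication-dependent histone genes, of which 15 of 26 were measured, had a median of 0.12, with 12 of 15 fitted higher. Their list mean in every early array (0.06 to 0.36) exceeded the untreated ones (-0.02 to 0.02). The 0.36 was from 24 h replicate 1, and the other early arrays reached at most 0.16. Member by member, 0 lay above the untreated arrays and 1 was higher at an unadjusted p under 0.05. The median untreated level of the list, 4.66, was near the floor.

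In other lists the genes of smallest p were looked at. F3, tissue factor and a YAP target, had 7.54, 7.71 and 7.78 in untreated arrays, 8.13 and 7.94 at 12 h, and 8.46, 8.14 and 8.17 at 24 h (0.49 ± 0.10, limma adjusted p = 0.320). Jun, of the AP-1 factors, had 7.34, 7.55 and 7.58 against 7.65 and 7.81 at 12 h and 7.83, 7.68 and 7.96 at 24 h (0.29 ± 0.08, adjusted p = 0.468). In both genes all early arrays lay above the untreated ones, and both were higher still at 48 h, at 8.57 and 8.45 for F3 and 8.01 and 8.17 for Jun. Each was the 1 such member of its list, 3.23% of 31 and 3.03% of 33. That is near the 2.65% of genes at 5 log2 units or more. Gabarapl2, an autophagosome protein, had 8.67, 8.61 and 8.73 against 8.98, 8.88, 8.82, 8.93 and 8.88 (0.23 ± 0.07, adjusted p = 0.472), in a lysosome and autophagy list whose median was 0.03. Of its 36 members 1 (2.78%) lay above the untreated arrays and 1 below. Hmox1, heme oxygenase, had 8.30, 8.57 and 8.46 in untreated arrays and 8.33, 8.11, 7.97, 7.75 and 8.27 in early ones (-0.36 ± 0.14, adjusted p = 0.549), where 12 h replicate 1 overlapped. Interferon, NF-kB and circadian lists had medians of -0.02, 0.01 and -0.03, and extracellular matrix genes -0.07. The plot of list means by array shows these lists around 0, cholesterol synthesis and the unfolded protein response at the bottom and histones at the top.

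**Figure D5:**
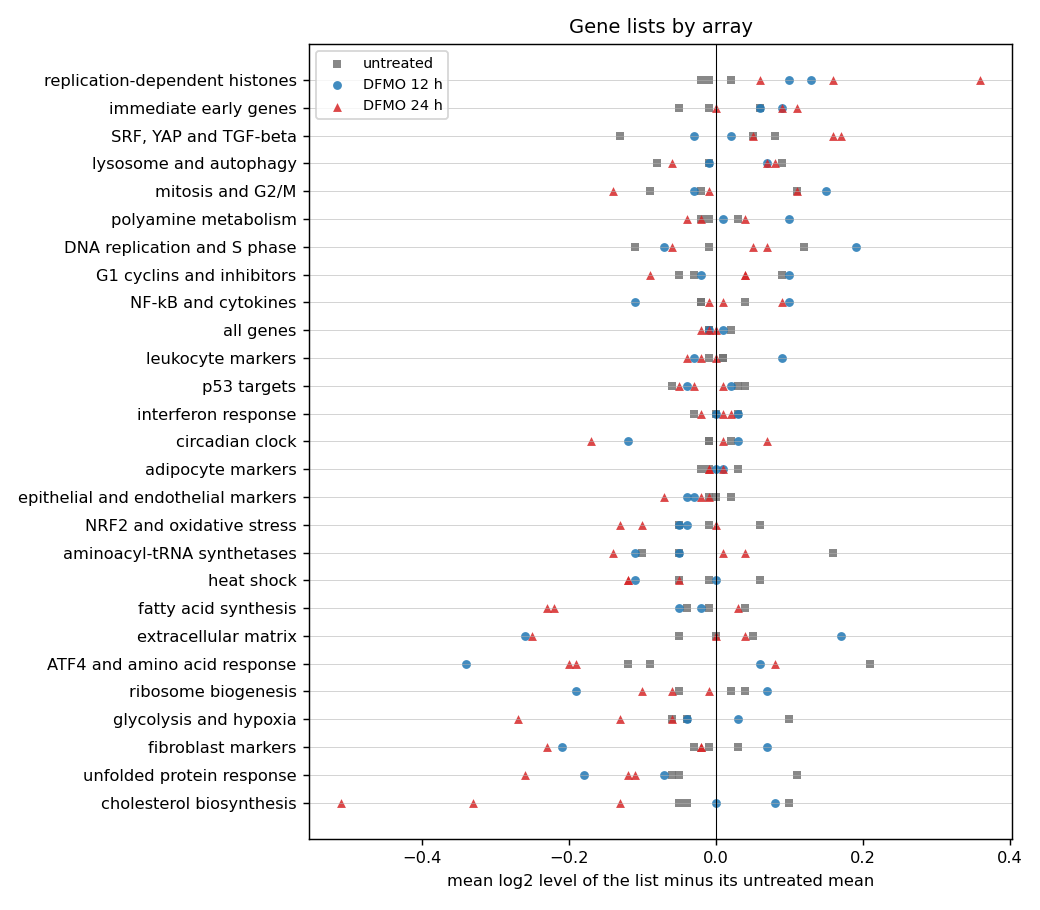
Mean log2 level of the members of each gene list in each of the 8 arrays minus the mean of the 3 untreated arrays (grey squares untreated, blue circles 12 h, red triangles 24 h). Lists are ordered by the median pooled difference of their members. In the histone and unfolded protein response lists all early points lie to 1 side of the untreated ones. Cholesterol synthesis separates the 24 h points, at -0.13 to -0.51, from the 12 h points, at 0.00 and 0.08.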

How the data were processed

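The authors deposited 1 table of log2 values for 12 Affymetrix MoGene 1.0 ST arrays, made with RMA in Partek per the submitters' processing notes. RMA corrects background, makes the distributions of the arrays alike and summarises probes, so a change shared by most genes is removed. Versions and genome build are not given in the sources used here. Values ran from 2.53 to 13.18. Of 35399 transcript clusters, 21789 had 1 gene symbol in GEO's platform annotation, 1621 had several and 11989 had none. For the 999 genes with more than 1 cluster the one of highest mean was kept, which left 19938 genes.

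Groups were read from the sample titles. limma 3.58.1 in R 4.3.3 was fitted to all 12 arrays with a mean each for untreated, early (12 h and 24 h pooled), 48 h and 96 h, with 8 residual degrees of freedom, and p-values were adjusted over all genes by Benjamini-Hochberg. A second fit gave 12 h and 24 h their own means. All adjusted p-values are from limma. The threshold was 0.05. The fit was tested on simulated data. Nothing says whether the arrays came from separate cultures beyond the word biological, so p-values measure the spread between these arrays. Tables, motifs and figures were made with Python 3.11.15, pandas 2.3.3 and matplotlib 3.10.9. Promoters, microRNAs and gene spans are from RefSeq, GRCm38.p6.

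Named genes were the 10 of smallest p in each direction whose groups did not overlap, all members of the polyamine and cholesterol lists, up to 4 of smallest p in each other list of the 26, and the 3 of smallest p in each direction between 24 h and 12 h. Genes without a proper symbol were passed over, which left out 1 gene among those lower. Genes of at least 1.5-fold, and Spire2, Manf and Dnajc3, were named after their values were seen. The members and the lists were chosen with earlier results of these data known. Alternatives tried were the replicate number as a block, a block for the 3 arrays that deviated together, array weights and centring of arrays. Further ones were a filter on low levels, all clusters, a trended and robust variance, 8 arrays only, equal weight of both times and each array left out.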

Additional observations from a re-analysis of the deposited data

Results flagged for a closer look

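Among 90 values tested in the 5 early arrays, 4 had 1 array set apart from the other early arrays, where chance gives about 1 in 20. Tmem230 was lowest in 24 h replicate 1, at 6.50 log2 units against 6.59 to 6.62 in the others. Slc45a4 was lowest in 24 h replicate 3, at 4.42 against 4.87 to 5.04. Emsy was lowest in 24 h replicate 2, at 6.15 against 6.33 to 6.41. The mean of the leukocyte markers was highest in 12 h replicate 2, at 3.81 against 3.68 to 3.71. That array also held the highest position on the first principal component, 15.4.

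In 5 cholesterol genes both arrays at 12 h lay above the untreated mean and all 3 at 24 h below it. Both times share the untreated arrays, so the difference was tested between the times, by limma, with an adjusted p of 1 for each gene. Idi1 stood at 0.02 and -0.43 log2 units from untreated, a difference of -0.45 between 24 h and 12 h. Mvk stood at 0.12 and -0.49 (-0.61 between times). Pmvk, phosphomevalonate kinase, stood at 0.13 and -0.46 (-0.59). Insig1 stood at 0.08 and -0.33 (-0.40). Cyp51, the lanosterol demethylase, stood at 0.07 and -0.19 (-0.27), with 24 h replicate 2 only just below the untreated mean. All 3 arrays at 24 h lay below both at 12 h in each of these genes.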

How the results depend on the processing

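The count of called genes was 0 under every alternative but 1: without 12 h replicate 2, Spire2, a nucleator of actin, passed at -0.57 (limma adjusted p 0.0195, against -0.47 and 0.421 with all arrays), so leaving out 1 array gave 0 to 1 called, all lower. The smallest adjusted p reached 0.0672 with centred arrays, 0.062 over all clusters, 0.0715 with a trended robust variance and 0.0938 with array weights. At an adjusted p under 0.1 the count in the main fit was also 0 (smallest limma adjusted p 0.115), while the fits just named reached below 0.1. Array weights moved the genes higher at an unadjusted p under 0.05 from 642 to 1039. Centring gave 1294 higher and 412 lower, with 862 above and 245 below without overlap. A filter at 4.04 log2 units left 10331 genes, with 457 higher and 326 lower, 262 above and 272 below, so the excess of lower genes turned to 58.4% higher. All clusters gave 991 and 2031, with 586 and 1648. Leaving out 1 array gave 324 to 1143 higher and 647 to 1138 lower, the lowest without untreated replicate 2 and the highest without untreated replicate 3, with 469 to 1384 above and 1089 to 2001 below. Between 24 h and 12 h it gave 349 to 1331 genes, the highest without 12 h replicate 1, and 901 without 24 h replicate 3.

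Chosen after seeing the data, leaving out the 3 arrays that deviated together gave 2107 above and 3736 below, among fewer arrays. Genes at 7 log2 units or more gave 226 higher and 157 lower, with 136 above and 134 below. With the replicate number as a block, 0 genes passed (smallest adjusted p 0.0946), and 1302 genes differed between 24 h and 12 h at an unadjusted p under 0.05. Same-numbered arrays correlated in their deviations at 0.189 and -0.255 for 12 h and 0.153, 0.287 and 0.581 for 24 h, so the numbers were not taken as pairs. Alternatives were run for 64 genes, the 20 of smallest p and the polyamine and cholesterol lists, and 48 kept their sign under each. The 20 of smallest p were picked for groups that did not overlap, and those of Azin2 did not overlap either. Leaving out arrays could not turn the sign of these genes, so for them those alternatives decide nothing. The cholesterol median lay between -0.26 (without 12 h replicate 1) and -0.10 (without 24 h replicate 1), and that of the unfolded protein response between -0.18 and -0.09 (without untreated replicate 3). The causes of these movements were not tested. Genes near the floor have compressed differences.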
